A study of Mus musculus with 4 samples.

Results

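Circles of at least 2 exons whose first exon is exon 2 of the transcript model numbered 836 among the 69136 circular RNAs that 4 libraries of differentiated C2C12 cells listed. They were taken from the 4 tables as exonic circles with an annotated intron on each side and a lowest exon number of 2, and a circle was a chromosome, start, end and strand. They made up 836 of 4074 exonic circles and 836 of the 3006 exonic circles that hold at least 2 exons and have an intron on both sides, called internal multi-exon circles here. C2C12 is a mouse myoblast line whose cells stop dividing and fuse into multinucleated myotubes. Before RNA was taken, the cells of every library were grown to high density and held for 3 to 4 days in DMEM with 2% horse serum.

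Total RNA, labelled Control, was read in 2 libraries and RNA labelled RPAD in 2. In RPAD, RNase R digests linear RNA for 30 min, poly(A) polymerase tails what linear RNA is left, and oligo(dT) beads take that RNA away. No genotype or drug differed between libraries. The protocol in the labels names HeLa RNA for the RNase R step although all 4 libraries are labelled C2C12, and this was not resolved. The labels do not say whether libraries came from separate cultures, so p-values cover nothing beyond how these libraries differ from each other, and that spread may be technical. The deposited tables pair no transcript with a gene symbol, and 0 of the 1424 transcript names attached to these circles matched the name tables at hand. Circles are therefore given by mm9 position, counted from 1, and the labelled cell type was not checked against marker genes.

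A circular RNA forms when the splice donor at the end of an exon is joined back to the splice acceptor at the start of the same or an earlier exon. Exon 1 has no acceptor, since it begins at the cap, so exon 2 is the first exon of a transcript at which such a circle can start. The intron before it, intron 1, is often the longest of a gene, and long flanking introns, particularly those that hold repeats able to pair across the exons between them, are a known feature of circle-forming exons. Exon 2 often holds the start codon of a protein-coding transcript.

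Back-splice reads of all kinds numbered 38850 and 35981 (total RNA) and 150478 and 191246 (RPAD), of which 16179, 15392, 55971 and 91868 lay on exonic circles. Sequencing depth itself is unknown. Where 4 counts or shares stand in a row below, they belong to total RNA 1, total RNA 2, RPAD 1 and RPAD 2 in that order. Copies made by PCR were not marked, so intervals and detection limits cover counting error only. The smallest p that 2 against 2 libraries can give is 0.333, and the smallest for values paired within 4 libraries is 0.125, so none of the permutation tests below could reach 0.05.

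Exon 2 was the most frequent first exon of internal multi-exon circles in every library. Of the 3006 such circles, 836 (27.8%) started at exon 2, 408 at exon 3, 327 at exon 4 and 215 at exon 5. Starts at exon 2 outnumbered starts at exon 3 by 449 to 215 and 383 to 188 in total RNA, and by 147 to 56 and 180 to 79 in RPAD. The ratio had a geometric mean of 2.25 (range 2.04 to 2.63, n = 4; exact two-sided sign-flip permutation p = 0.125). In reads the ratio was 3.72. The number of transcripts long enough to offer each start was not measured, and libraries share part of their circles, so the 4 ratios are not wholly independent.

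**Figure D1:**
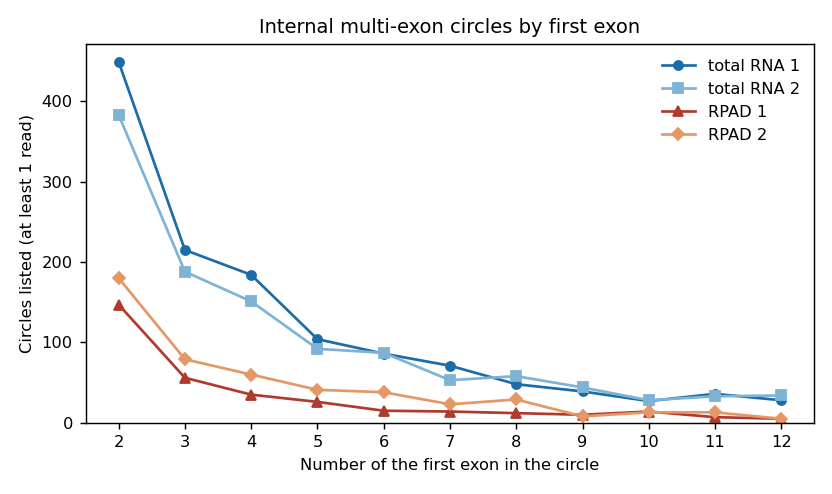
Number of internal multi-exon circles listed in each library (vertical axis) by the number of the first exon in the circle (horizontal axis), with 1 line per library. Each line is highest at exon 2, at 449, 383, 147 and 180 circles, and falls at exon 3.

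Just outside the rule lay 173 circles made of exon 2 alone, and just inside it 159 made of exons 2 and 3. The circles of exon 2 alone had 738, 572, 2627 and 4492 reads in all, and those of exons 2 and 3 had 506, 665, 3028 and 2099. The median first intron was 7353 nt before circles of exon 2 alone and 13197 nt before those of exons 2 and 3.

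The exon number rests on 1 transcript model per circle. The model had an Ensembl-style name for 531 of the 836 circles and was an assembled one for 305. For 21 circles the table of another library gave a different first exon, and 23 further circles had exon 2 as first exon in some library but not in the one with most reads. Of the 836, 427 lay on the plus strand and 409 on the minus strand. The junction score, a number from 0 to 3 that the sources used here do not define, was 0 in every library for 698.

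The intron upstream of these circles was long. Its length ran from 87 to 289114 nt, with a median of 15841 nt and quartiles of 6081.75 and 30319 nt. It exceeded 10000 nt for 509 circles (60.9%) and fell under 1000 nt for 41 (4.90%). Among the 2170 internal multi-exon circles that start at exon 3 or later, the upstream intron had a median of 4043.5 nt, exceeded 10000 nt for 26.5% and fell under 1000 nt for 19.4%. Counted once per distinct intron, the medians were 13733 nt over 675 first introns and 3844 nt over 1863 later ones.

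All 4 libraries gave this order. The median first intron was 17701, 15205, 18448 and 17793 nt, while the median upstream intron of later-starting circles was 4252, 4069, 4220 and 4823.5 nt. The ratio of medians was 3.98 (geometric mean, range 3.69 to 4.37, n = 4; exact two-sided sign-flip permutation p = 0.125). Against circles that start at exon 3 alone, whose upstream intron had a median of 8221 nt, the ratio was 1.93 and the p the same. The upstream median was 6381 nt for starts at exon 4, 4416 nt at exon 5 and 1795.5 nt for starts beyond exon 12.

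**Figure D2:**
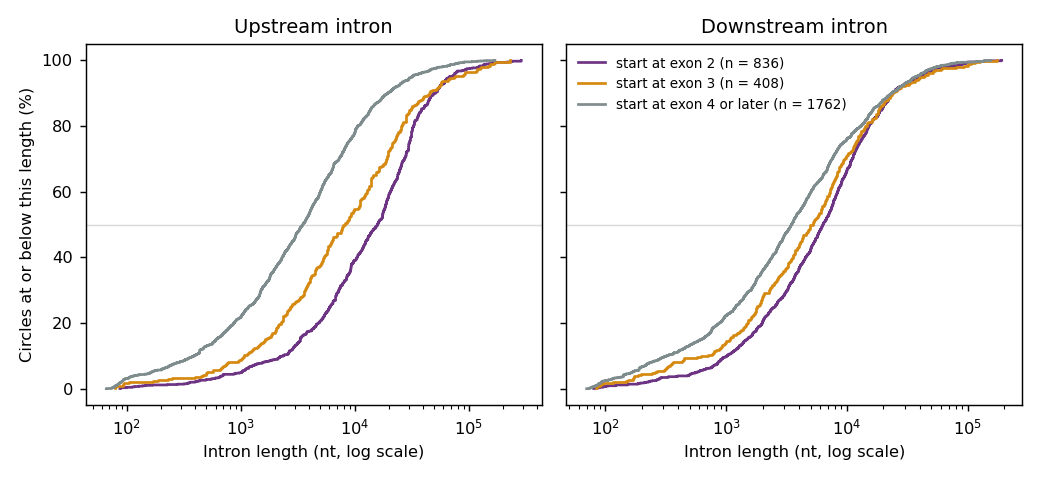
Cumulative share of circles (vertical axis, percent) by the length of the upstream intron (left) and the downstream intron (right), on a log scale in nt, for circles that start at exon 2, at exon 3, and at exon 4 or later. The curves stand well apart for the upstream intron, with medians of 15841 nt at exon 2 and 8221 nt at exon 3, and lie closer together for the downstream intron, with medians of 6323.5 and 5148 nt.

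The downstream intron differed less. Its median was 6323.5 nt for circles starting at exon 2 and 3699.5 nt for later starts. The ratio of medians over libraries was 1.72 (range 1.46 to 1.94, n = 4; exact sign-flip permutation p = 0.125). The first intron was longer than the downstream intron in 624 of 836 circles (74.6%), against 50.4% for the upstream intron of later-starting circles. Across the 836 circles the lengths of the 2 flanking introns had a Spearman correlation of 0.36, given as a description, since circles of one transcript share an intron.

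First introns that gave intronic circles, lariat-derived RNAs that begin at a splice donor and end inside the intron, were much shorter than those before exon-2 circles. The 706 distinct introns numbered 1 that listed an intronic circle had a median of 1354.5 nt and quartiles of 685.25 and 3149.75 nt. The 7151 later introns with an intronic circle had a median of 1349 nt. No test over libraries was made of this difference.

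The number of exons per circle was small and skewed. Circles of 2 exons were the most common class, with 159 circles (19.0%), followed by 145 of 3, 120 of 4, 95 of 5 and 78 of 6 exons, and 76 held 11 or more. The median was 4 exons (quartiles 3 and 7) and the maximum 24. The exons of each circle were consecutive in its model, so a circle of 4 exons ends at exon 5.

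Spliced length is the sum of the exon sizes listed for a circle, so a rise with exon number is built in. Whether a circle keeps every exon between its ends was not examined. The median spliced length was 755 nt (quartiles 440.5 and 1235.75, range 110 to 6548 nt). It rose from 333 nt for 2 exons to 552.5 nt for 4, 848 nt for 6 and 1674 nt for 11 or more. Later-starting circles had a median of 633.5 nt and also a median of 4 exons. The first exon in the circle had a median of 143 nt at exon 2 and 123 nt at later starts, a ratio over libraries of 1.14 (range 1.05 to 1.22, n = 4; exact sign-flip permutation p = 0.125). First intron length had almost no rank relation to exon number (Spearman correlation 0.01) or to spliced length (0.08) across the 836 circles.

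Median sizes of listed exon-2 circles differed little between total RNA and RPAD. The median spliced length was 776, 785, 796 and 820 nt, a difference of 27.5 nt without overlap between groups (exact permutation p = 0.333, the smallest possible). The median exon number was 4, 5, 4 and 4 (exact permutation p = 1). The median first intron was 1667.5 nt longer in RPAD, also without overlap (exact permutation p = 0.333). Among circles of 5 or more reads, the differences in spliced length and first intron changed sign.

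Circles of 4 exons held more of the reads than of the circles in every library, with a wider gap in RPAD. Circles of 4 exons took 18.4%, 14.8%, 33.8% and 35.0% of the reads on exon-2 circles. Of the exon-2 circles listed they were 14.7%, 12.8%, 16.3% and 20%. A single 4-exon circle on chromosome 5, described below, supplied 3393 of the 6728 such reads in RPAD 1 and 3881 of the 9266 in RPAD 2. Circles of 3 exons took 9.54% of reads in RPAD 1 and 25.3% in RPAD 2, so the RPAD libraries lay on both sides of total RNA (14.2% and 15.2%).

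**Figure D3:**
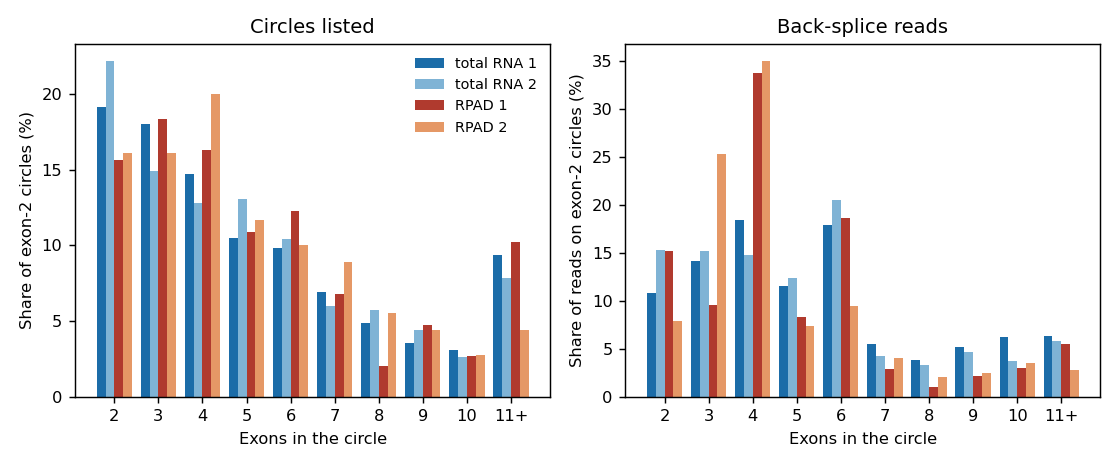
Share of listed exon-2 circles (left) and of reads on them (right), in percent, by the number of exons in the circle, with 1 bar per library. The share of circles falls from 2 to 4 exons in total RNA (19.2% to 14.7% and 22.2% to 12.8%), is highest at 3 exons in RPAD 1 (18.4%) and at 4 exons in RPAD 2 (20%), and the 4-exon class holds 18.4%, 14.8%, 33.8% and 35.0% of reads.

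Fewer exon-2 circles were listed in RPAD, and they carried more reads each, as did later-starting circles. The 4 libraries listed 449, 383, 147 and 180 exon-2 circles, or 416 ± 46.7 and 164 ± 23.3 (SD, n = 2 each), with no overlap between groups (exact permutation p = 0.333). After thinning to 15392 exonic reads in each library, 443.5, 383, 137.2 and 146.9 remained on average. The difference of -252.5 circles shrank to -159 among circles of 2 or more reads and to -40 among those of 5 or more (190, 172, 132 and 150), still without overlap. Mean reads per listed exon-2 circle were 10.4, 11.4, 136 and 147, and median reads were 3, 4, 50 and 30.5. The part seen by only 1 read was 26.1%, 22.5%, 4.76% and 5%. The 10 circles with most reads held 31.6%, 29.5%, 48.4% and 53.8% of the reads on exon-2 circles. Later-starting circles listed numbered 1085, 997, 256 and 394, with mean reads of 8.64, 9.16, 115 and 137. Exonic circles as a whole numbered 2067, 1821, 499 and 777, so the fall was not particular to exon-2 circles.

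Among internal multi-exon circles listed, the percent that started at exon 2 was 29.3, 27.8, 36.5 and 31.4, which did not overlap between groups, a difference of 5.41 points (exact permutation p = 0.333, the smallest possible). The value was 5.86 points after thinning, and 2.85 points without RPAD 1. Among circles of 5 or more reads the percents were 33.0, 31.0, 37.8 and 32.8, which overlapped, a difference of 3.31 points (exact permutation p = 0.667).

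In reads, exon-2 circles held close to the same part of the exonic total in 3 of the 4 libraries. The share was 28.8% (exact Clopper-Pearson 95% interval 28.1 to 29.5) in total RNA 1, 28.3% (27.6 to 29.0) in total RNA 2, 35.6% (35.2 to 36.0) in RPAD 1 and 28.8% (28.5 to 29.1) in RPAD 2. The means were 28.6% ± 0.368 and 32.2% ± 4.81 (SD, n = 2 each), a difference of 3.63 points (exact permutation p = 0.667). RPAD 1 was the highest: without it the difference was 0.22 points, and without RPAD 2 it was 7.03 points. The order of the RPAD libraries depended on the denominator. As a share of all back-splice reads the values were 12.01%, 12.11%, 13.24% and 13.83%, and among circles with Ensembl-style names the share of exonic reads was 23.0%, 25.2%, 27.2% and 29.7%. In both, RPAD 2 was the highest and the groups did not overlap (exact permutation p = 0.333 for each). Without the most abundant exon-2 circle the difference was 0.81 points.

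Most exon-2 circles were seen in 1 library. Of the 836, 618 were in 1 library, 138 in 2, 55 in 3 and 25 in all 4. There were 547 only in total RNA, 150 only in RPAD and 139 in both groups. A single read in all was the whole evidence for 172 circles, and 381 never reached 5 reads in a library. The RPAD libraries shared few abundant circles: of 97 exon-2 circles with at least 20 reads in RPAD 1, 68 (70.1%, exact 95% interval 60.0 to 79.0) had 0 reads in RPAD 2, and of 101 such circles in RPAD 2, 72 (71.3%, 61.4 to 79.9) had 0 in RPAD 1. In total RNA the shares were 10 of 48 (20.8%, 10.5 to 35.0) and 14 of 58 (24.1%, 13.9 to 37.2). Later-starting circles chosen the same way gave 107 of 153 (69.9%) and 163 of 216 (75.5%) in RPAD. In total RNA they gave 30 of 83 (36.1%) and 28 of 78 (35.9%). Each of these had an interval that overlapped that of exon-2 circles. Such intervals count circles of the same libraries as independent, although circles can share an acceptor, so the overlap is a description and no test. A count of 0 in an RPAD library is therefore common also for circles that the other RPAD library read often.

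Recurrence in more than 1 library was lowest for the shortest first introns and highest between 10000 and 20000 nt. Of 41 circles behind a first intron of up to 1000 nt, 5 (12.2%) were in at least 2 libraries, against 22 of 132 (16.7%) behind 1000 to 5000 nt and 39 of 154 (25.3%) behind 5000 to 10000 nt. The share was 57 of 169 (33.7%) for 10000 to 20000 nt, 76 of 256 (29.7%) for 20000 to 50000 nt and 19 of 84 (22.6%) above that. These shares are descriptions over circles and were not tested. Within a library, first intron length and reads had Spearman correlations of 0.08, 0.19, -0.04 and 0.07, which is weak in counts as sparse as these.

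The exon-2 circle with the highest mean share of exonic reads was a minus-strand circle of chromosome 5 (3747021 to 3772787). Exons 2 to 5 of an assembled model make up its 873 nt, behind a first intron of 29809 nt. It held 1.56% and 0.76% of exonic reads in total RNA (252 and 117 reads) and 6.06% and 4.22% in RPAD (3393 and 3881 reads), with no overlap between groups. The log2 fold change relative to other tested circles was 1.78 (SE 0.87; edgeR, Benjamini-Hochberg adjusted p = 0.484). Leaving out RPAD 1 moved it to 2.34, below the threshold in p (0.0490 after Benjamini-Hochberg adjustment in edgeR; its alternatives ran from that value to 1).

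Among the next circles by mean share, those ranked 2, 3 and 7 were read in all libraries at more even shares. Chromosome 9 from 66387869 to 66414710 (transcript ENSMUST00000174387, exons 2 to 7, 538 nt, first intron 25880 nt) held 0.85%, 1.75%, 0.95% and 1.26% of exonic reads. Chromosome 16 from 94605519 to 94624975 (exons 2 to 11, 911 nt, first intron 13050 nt) held 1.45%, 0.83%, 1.00% and 0.55%. For both, the groups overlapped. Chromosome 16 from 32950378 to 32961830 (ENSMUST00000156928, exons 2 to 6, 625 nt, first intron 35888 nt) had 73, 130, 323 and 800 reads, and its shares of 0.45%, 0.84%, 0.58% and 0.87% overlapped as well. None of the 3 came near the threshold (edgeR, Benjamini-Hochberg adjusted p = 0.999 for each).

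Other circles among the first 12 were read in 1 RPAD library and not in the other. Chromosome 19 from 53887738 to 53892510 (ENSMUST00000164202, exons 2 to 5, 1345 nt) had 82, 21, 0 and 2888 reads. Its exon 2 measures 1093 nt and its first intron 135655 nt, the longest before any exon-2 circle with at least 20 reads in a library. Chromosome 4 from 133275452 to 133278966 (ENSMUST00000008024, exons 2 to 4, 780 nt, first intron 33343 nt) had 54, 141, 0 and 2083 reads. Both were above total RNA in share in RPAD 2 (3.14% and 2.27%) and at 0 in RPAD 1, so leaving out RPAD 2 turned the direction of each. Neither passed with all libraries (edgeR, Benjamini-Hochberg adjusted p = 0.999), but the chromosome 19 circle passed as lower without RPAD 2 (0.00163) and as higher without RPAD 1 (0.00698), and the chromosome 4 circle passed as lower without RPAD 2 (0.000128). In the opposite pattern, chromosome 1 from 66808622 to 66854178 (exons 2 to 7, 1867 nt, first intron 699 nt) had 53, 0, 1052 and 0 reads. Chromosome 17 from 79076622 to 79100293 (ENSMUST00000145910, exons 2 to 7, 697 nt) had 0, 0, 868 and 0.

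Of the remaining circles among the first 12, 3 were read in all 4 libraries. Chromosome 12 from 52748981 to 52762700 (exons 2 to 7, 703 nt, first intron 29708 nt) held 1.23%, 0.91%, 0.17% and 0.46% of exonic reads, with no overlap (log2 fold change -1.76, SE 1.48; edgeR, Benjamini-Hochberg adjusted p = 0.999, and 0.0296 without RPAD 2). Chromosome 5 from 33162515 to 33178337 (exons 2 to 7, 5072 nt) had 128, 89, 445 and 47 reads, and chromosome 5 from 96557962 to 96563151 (exons 2 to 4, 395 nt) had 27, 32, 773 and 178. The shares of both overlapped between groups.

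**Figure D4:**
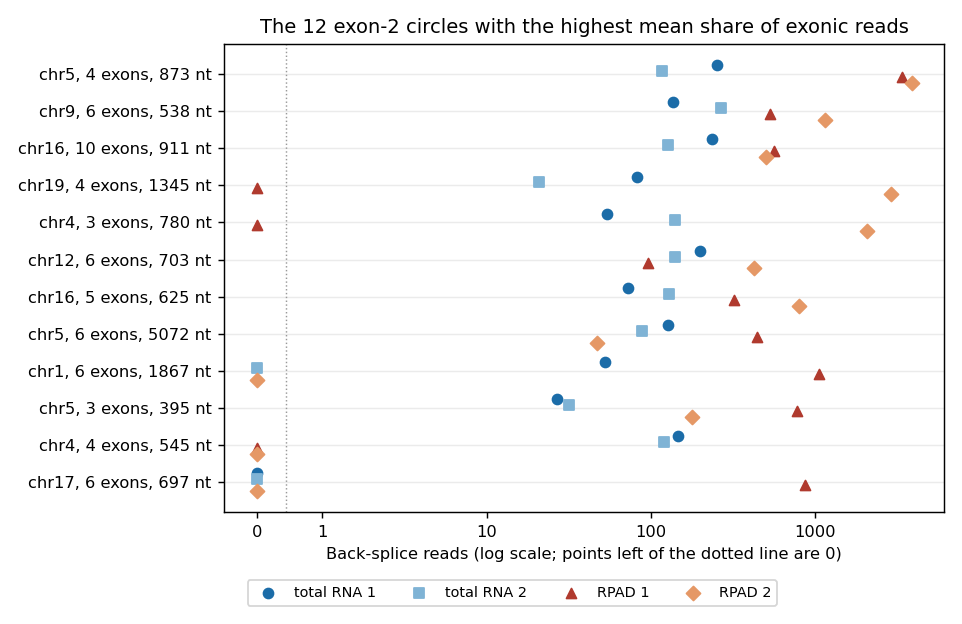
Back-splice reads of the 12 exon-2 circles with the highest mean share of exonic reads (1 row each, named by chromosome, exon number and spliced length), on a log axis with 0 drawn left of the dotted line, with 1 symbol per library. The first circle, on chromosome 5, has 3393 and 3881 reads in RPAD and 252 and 117 in total RNA, and 5 of the 12 have 0 reads in at least 1 RPAD library.

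Other circles outside the first 12 were also read in all 4 libraries. Chromosome 12 from 25563056 to 25567659 (ENSMUST00000110942, exons 2 and 3, 224 nt) had 37, 41, 46 and 82 reads. Its shares of exonic reads, 0.23%, 0.27%, 0.082% and 0.089%, were lower in RPAD without overlap (log2 fold change -1.71, SE 1.90; edgeR, Benjamini-Hochberg adjusted p = 0.999). This circle lies between a first intron of 46416 nt and a downstream intron of 41404 nt. Chromosome 15 from 82655661 to 82687714 joins exons 2 and 3 into 5866 nt, of which exon 2 makes up 5772 nt, and had 34, 46, 107 and 12 reads. Its shares, 0.21%, 0.30%, 0.19% and 0.013%, were also lower in RPAD without overlap (edgeR, Benjamini-Hochberg adjusted p = 0.999). Chromosome X from 35777444 to 35795317 (ENSMUST00000074913, exons 2 to 8, 1053 nt) had 1, 4, 83 and 639 reads, with no overlap of shares, and a log2 fold change of 4.89 (SE 2.36; edgeR, Benjamini-Hochberg adjusted p = 0.465, and 0.00601 without RPAD 1).

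For 6 more of these circles the highest raw count stood in 1 RPAD library, where exonic reads were more numerous. Chromosome 8 from 26751049 to 26760175 (exons 2 to 4, 984 nt) had 38, 66, 15 and 306 reads, chromosome 18 from 35953119 to 35961021 (exons 2 to 5, 453 nt) 58, 28, 53 and 241, and chromosome 13 from 104674223 to 104679365 (exons 2 to 4, 364 nt) 11, 18, 14 and 255. Counts were highest in RPAD 1 for chromosome 5 from 65957228 to 65985787 (exons 2 to 6, 465 nt; 24, 53, 187 and 62 reads), chromosome 13 from 17842091 to 17864791 (exons 2 to 7, 1386 nt; 9, 53, 93 and 13) and chromosome 9 from 96492369 to 96511918 (exons 2 to 5, 394 nt; 4, 7, 162 and 49). By share of exonic reads the order was not the same. The chromosome 18 circle was highest in total RNA 1 (0.36%). The circles of chromosome 8, chromosome 5 and chromosome 13 from 17842091 were highest in total RNA 2 (0.43%, 0.34% and 0.34%). Chromosome 13 from 104674223 had shares of 0.0680%, 0.117%, 0.0250% and 0.278%, with overlap. The shares of the chromosome 9 circle, 0.0247%, 0.0455%, 0.289% and 0.0533%, did not overlap between groups.

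Among exon-2 circles with at least 20 reads in a library, the extremes of exon number, spliced length and short first intron were each read in 1 library. The one with most exons lay on chromosome 18 from 82787102 to 82851679 (ENSMUST00000171071, exons 2 to 24, 4398 nt) and had 96 reads in RPAD 1 and 0 elsewhere. The longest of these by spliced length, chromosome 9 from 110447804 to 110476778 (ENSMUST00000153838, exons 2 to 12, 5908 nt), had 23 reads in total RNA 1 alone, and its exon 2 measures 16 nt. The one of these behind the shortest first intron, 343 nt, lay on chromosome 5 from 64315974 to 64321774 (exons 2 to 4, 434 nt) and had 1324 reads in RPAD 2 alone.

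Single exon-2 starts often gave several circles. The 836 circles used 654 splice acceptors, of which 126 were shared by 2 or more circles, 308 circles in all. There were 89 acceptors with 2 circles, 24 with 3, 10 with 4, 2 with 5 and 1 with 8. Circles of one acceptor share their start and differ in where they end. Among shared acceptors with at least 20 reads, the leading circle took a median of 86.1%, 83.3%, 100% and 100% of the reads, over 30, 28, 47 and 39 acceptors. Where both libraries of a group had 20 reads or more at an acceptor, they shared the leading circle at 17 of 21 acceptors in total RNA and at 13 of 23 in RPAD. Here too, 20 reads are a smaller share of exonic reads in RPAD, so the acceptors compared differ in abundance.

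The chromosome 5 acceptor at 3772787 gave 5 circles of 2 to 9 exons. Its 4-exon circle took 82.6%, 84.2%, 97.7% and 95.8% of the acceptor's reads, and the groups did not overlap. Its 9-exon circle of 1567 nt had 16, 15, 0 and 87 reads. At chromosome 16, acceptor 94605519, circles of 9 and 10 exons were both read in every library, and the 10-exon circle led with 71.9%, 69.0%, 90.6% and 70.9%. The 9-exon circle of 856 nt took 23.2%, 30.4%, 9.37% and 29.1%. There the RPAD 2 split lay near that of total RNA.

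Elsewhere the leading end changed between libraries. At chromosome 17, acceptor 66402431, the 7-exon circle (994 nt) led in total RNA with 30 of 44 and 51 of 79 reads. The 3-exon circle (433 nt) led in RPAD with 52 of 69 and 431 of 455 reads, so the longer form held 68.2%, 64.6%, 24.6% and 5.27%, without overlap (chosen after the values were seen, and not tested). At chromosome 19, acceptor 53887738, the 4-exon circle had 82 of 103 reads in total RNA 1, while the 6-exon circle of 1621 nt had 72 of 93 in total RNA 2. At chromosome 12, acceptor 52762700, the 6-exon circle led in 3 libraries and an 11-exon circle of 1358 nt led in RPAD 1 with 259 of 355 reads. At chromosome 4, acceptor 133278966, the 3-exon circle had all 54 reads in total RNA 1, 141 of 145 in total RNA 2 and 2083 of 2379 in RPAD 2, while a 2-exon circle of 663 nt had all 435 in RPAD 1.

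**Figure D5:**
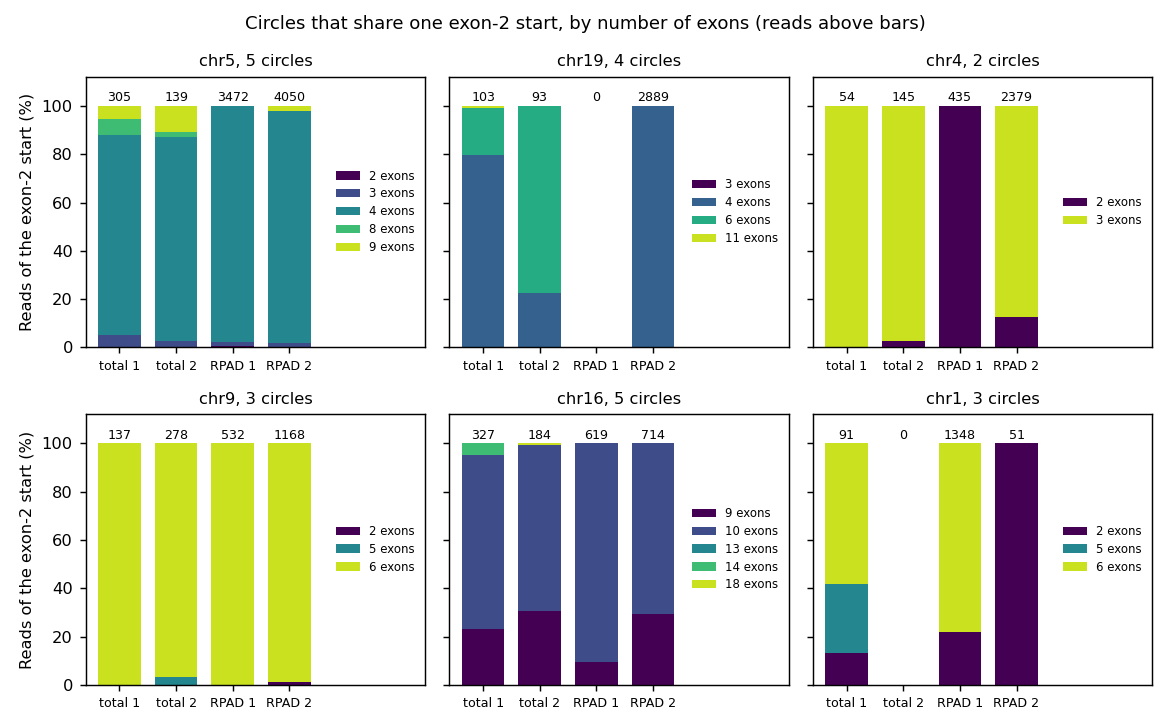
Share of reads (vertical axis, percent) among circles that start at the same exon-2 acceptor and end at different exons, for the 6 shared acceptors with most reads, with 1 bar per library, colours for the number of exons and the acceptor's reads above each bar. On chromosome 5 the 4-exon circle leads in all 4 libraries, while on chromosome 19, chromosome 4 and chromosome 1 the leading circle changes between libraries.

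The first intron assigned to an acceptor depended on the model at 20 of the 126 shared acceptors. At the chromosome 4 acceptor the 3-exon circle was assigned a first intron of 33343 nt and the 2-exon circle one of 418 nt from an assembled model. At the chromosome 9 acceptor 66414710 the lengths were 25880 and 146 nt. Of the 41 circles behind a first intron under 1000 nt, 21 had models with Ensembl-style names.

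Linked by transcript name or a shared circle end, the 836 circles fell into 641 hosts, of which 510 had 1 exon-2 circle. The host with most, 8, lay on chromosome 13 from 105084527 to 105269755, where 1 acceptor was joined to 8 ends, giving circles of 5 to 23 exons. Its 6-exon circle of 1354 nt had 80, 71, 81 and 0 reads, its 8-exon circle of 1504 nt 25, 23, 0 and 7, and its 11-exon circle of 1930 nt 12, 29, 94 and 7. Hosts on chromosomes 1, 5, 16 and 18 had 5 each. Of the 641 hosts, 176 also listed an internal multi-exon circle that starts later. Over all 641 hosts, exon-2 circles held 69.8%, 70.2%, 71.5% and 67.6% of the reads on internal multi-exon circles, with overlap between groups. Hosts were included only if they had an exon-2 circle, so this part is high by selection. Over all internal multi-exon circles it was 33.2%, 32.3%, 40.3% and 32.9%.

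Tested over all circles for a difference between RPAD and total RNA, edgeR's quasi-likelihood fit called no exon-2 circle. The filter on low counts kept 148 of the 836, and it needed about 2 reads in a total RNA library against 7.95 and 10.1 in RPAD, so circles of total RNA passed more easily. Of the 148, 0 were called at a Benjamini-Hochberg adjusted p under 0.05, beside 0% of all 924 circles tested. At an unadjusted p under 0.05, 2 were higher in RPAD (1.73% of all tested circles and 2.81% of the exonic ones were) and 38 were lower (15.8% and 27.9%). The median log2 fold change was -0.83 over the 148, -0.15 over all 924 and -1.07 over the 462 exonic ones. Scaling by totals alone moved the first of these medians to -0.76 and the median over all 924 to 0.04, and DESeq2 size factors moved them to -0.47 and 0.19. The median over the 148 was -3.92 without RPAD 1 and -4.59 without RPAD 2, and without the low-count filter the median over all 836 was -3.30, so its size depended on these choices. No read in either RPAD library was found for 37 of the 148, and no read in either total RNA library for 2. These 37 were all among the 38 lower at unadjusted p, and these 2 were the 2 higher. Such circles passed the filter through 1 group alone, so their unadjusted p-values are no support for a difference. DESeq2 called 25 (16.9%), all lower in RPAD, beside 8.44% of all tested circles and 16.5% of the exonic ones. Of the 25, 24 had 0 reads in both RPAD libraries, and it called 0 without its independent filtering of low means. Without RPAD 1 edgeR called 56 (37.8%), beside 19.9% of all tested and 37.7% of the exonic ones. Without RPAD 2 it called 62 (41.9%), beside 23.2% and 43.5%, and 38 were called both times. The shares called thus lay near those of exonic circles as a whole.

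The smallest p belonged to a circle on chromosome 4 from 16079064 to 16085577 (exons 2 to 5 of an assembled model, 545 nt, first intron 4793 nt). Total RNA gave it 147 and 121 reads, or 0.91% and 0.79% of exonic reads. RPAD gave it 0 and 0 reads, which allows up to 0.00536% and 0.00327% (3 reads). Its edgeR Benjamini-Hochberg adjusted p was 0.179, and it passed the threshold with DESeq2 and without either RPAD library (range over its alternatives 2.90e-05 to 1). The next were chromosome 2 from 104626677 to 104635451 (ENSMUST00000117237, exons 2 and 3, 3785 nt), with 5, 8, 0 and 0 reads, and chromosome 19 from 53981939 to 53987415 (ENSMUST00000165617, exons 2 to 5, 619 nt), with 4, 10, 0 and 0, and the edgeR adjusted p of both was also 0.179.

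In the other direction, chromosome 7 from 97308958 to 97345530 (ENSMUST00000107223, exons 2 to 18, 1649 nt) had 0, 0, 43 and 61 reads. Chromosome 1 from 10199506 to 10206640 (ENSMUST00000088615, exons 2 to 6, 792 nt) had 0, 0, 77 and 63. Chromosome 6 from 98953194 to 98966659 (ENSMUST00000124058, exons 2 to 5, 584 nt) had 0, 5, 586 and 408. The groups did not overlap for any of the 3, but these were chosen by smallest p in this fit, so that adds no support. Their edgeR Benjamini-Hochberg adjusted p was 0.222, 0.227 and 0.465, and over their alternatives it ran from 0.0490, 0.0308 and 0.0134 to 1, passing the threshold only where an RPAD library was left out.

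Total RNA gave 67 exon-2 circles 5 or more reads in each of its libraries. Of these, 20 (29.9%, exact 95% interval 19.3 to 42.3) had reads in RPAD 1 and RPAD 2, 26 (38.8%, 27.1 to 51.5) in 1 of them and 21 (31.3%, 20.6 to 43.8) in neither. For the 109 later-starting circles chosen the same way, 41.3% (31.9 to 51.1) were in neither, and the intervals overlapped. These intervals also count circles as independent, so this overlap is a description and no test. Those in neither included chromosome 5 from 52572221 to 52576142 (ENSMUST00000031061, exons 2 and 3, 630 nt; 38 and 50 reads) and chromosome 4 from 9563048 to 9566494 (ENSMUST00000078139, exons 2 and 3, 219 nt; 17 reads in each), both chosen after their values were seen. The first of these allows up to 0.00536% of exonic reads in RPAD 1, against 0.24% and 0.32% in total RNA.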

How the data were processed

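RNA of 4 C2C12 libraries, 2 of total RNA and 2 of RPAD, was depleted of ribosomal RNA, made into cDNA, amplified by PCR (17 cycles) and read with an Illumina HiSeq2500, per the labels' protocols. Per the submitters' processing notes, cutadapt, TopHat, Cufflinks 2.2.1 and mm9 were used, and the sources used here do not name the back-splice caller. The deposited values are raw counts of back-splice reads per circle, per the file headers. The deposited tables also give a junction score of 0 to 3. A circle absent from a table was given 0 reads, and rows that differed were settled by the largest count. On the minus strand the upstream intron is the one at the higher position.

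Abundance was tested on all circles with edgeR 4.0.16 in R 4.3.3 (quasi-likelihood test, TMM, filterByExpr with minimum count 5 and minimum total 10, group as the only term, Benjamini-Hochberg adjustment). DESeq2 1.42.0 was an alternative. The SE is the absolute log2 fold change over the square root of F. Other values were compared by exact permutation over libraries, 11 comparisons in all with the edgeR test, without adjustment since none could reach 0.05. Thinning used 20 draws. The edgeR script was tested on simulated data. Python 3.11.15, numpy 2.4.6, pandas 2.3.3 and scipy 1.17.1 were used.

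Named circles were the 12 with the highest mean share, those in all 4 libraries (up to 20 by that share), the 3 of smallest p per direction, structural extremes and the hosts with most exon-2 circles; other circles were named after their values were seen. The members, lists and tests were chosen with earlier results of these data known. Gene lists could not be used, as no symbol was matched. No sequence is printed because no mm9 genome was used here.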

Additional observations from a re-analysis of the deposited data

How the results depend on the processing

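Over 11 results and 86 alternatives, 80 gave the same outcome. For the number of exon-2 circles called, that meant 0 calls again, as in 8 of its alternatives. For the other results it meant no reversal of direction and the same side of the threshold. Since the permutation tests could not reach 0.05, their side of it says nothing about stability. With at least 5 reads, the RPAD minus total RNA difference in median spliced length became -52.25 nt and that in first intron -398.75 nt, and with at least 2 reads that in exon number became 0.25; the cause was not tested. DESeq2 called 25 exon-2 circles where edgeR called 0. Leaving out 1 library gave 0 to 62 calls, with the lone library assumed to vary like the other group. Leaving out a library gave 0.224 to 7.03 points for the read share, -285.5 to -219.5 for circles listed, 3.86 to 4.08 for the intron ratio, 15.5 to 39.5 nt for spliced length and 419.5 to 2915.5 nt for first intron length. Weighting by reads gave an intron ratio of 5.78 and Ensembl-style names alone 4.27. A replicate block in the fit left edgeR at 0 exon-2 circles called, with a median log2 fold change of -2.24 over the 148, and the read share difference stayed 3.63 points (exact sign-flip permutation p = 0.5, the smallest for 2 pairs). Deviations of same-numbered libraries correlated at 0.0524 over 924 circles and 0.118 over the 148 exon-2 circles, and the labels do not say that a number marks a shared culture. Results on downstream introns, first exon length and the percent of circles listed, the fit without independent filtering and the share without the most abundant circle were chosen after seeing the data.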
